A study of Chelonia mydas with 15 samples.

Results

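Gene expression in green sea turtle embryos that had spent 36 h in air was compared with the mean of 2 groups not incubated in air, embryos kept for 36 h in hypoxia and embryos from freshly laid eggs. Each of those 2 groups carried the same weight. All 15 libraries of the study that have sample labels entered, 5 of them normoxia libraries and 10 from the other groups (5 hypoxia, 5 freshly laid). The normoxia embryos came from eggs of Chelonia mydas buried in sand at about 159 mmHg of oxygen, and the hypoxia embryos from eggs sealed in nitrogen-filled bags under sand, below 8 mmHg. Both were held at 26 to 28 °C. The freshly laid embryos were removed within 1 h of laying and had no incubation. The labels give no genetic change, drug or other agent for any group, and name neither the female nor the clutch of an egg. Some libraries of a group may therefore share a female or clutch. The spread between libraries behind each p-value may then understate differences between clutches, and may be technical in part.

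Sea turtle embryos stop developing in the oviduct, where oxygen is scarce, and go on once the egg is laid into air. Laid eggs held without oxygen remain stopped for a time. At laying the embryo is a gastrula. In the vertebrate stages that follow, the primitive streak and the cells around it supply mesoderm, the mesoderm beside the midline is cut into somites, and neural plate, neural crest and surface ectoderm become distinct. Cells read oxygen through prolyl hydroxylases, which mark the alpha subunits of hypoxia-inducible factors (HIF) for destruction when oxygen is present. When oxygen is short, those factors raise genes of glucose uptake, glycolysis and lactate export.

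The libraries held 18.3 to 26.8 M counts in normoxia, 17.6 to 20.8 M in hypoxia and 14.5 to 21.8 M in freshly laid embryos. Of 23730 named genes, 16639 passed the filter on low counts and were tested. On the first principal component of log2 CPM, with 33.5% of the variance, normoxia lay at one end (-77.7 to -69.3), hypoxia at the other (56.8 to 98.3) and freshly laid embryos in between (-12.1 to 5.49), so the 2 groups behind the mean were themselves far apart. Hypoxia differed from freshly laid embryos at 6701 genes, 40.3% of those tested. The labels of the samples call neither group arrested, and cell cycle genes were not low in both: of 44 tested DNA replication genes and 35 tested mitosis genes, freshly laid embryos were the nearer group to normoxia for 41 and 32, beside 60.8% of all tested genes. The groups are therefore called by their labels throughout. The whole embryo was sequenced, so fewer cells of a type and less RNA per cell cannot be told apart.

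Normoxia differed from the mean of hypoxia and freshly laid embryos at 7381 genes, 44.4% of those tested, by edgeR's quasi-likelihood test at an adjusted p under 0.05. Of these, 3644 (21.9%) were higher and 3737 (22.5%) lower in normoxia. A difference from a mean can come from 1 of its 2 groups alone. A gene was therefore said to lie beyond both groups only when normoxia differed the same way from hypoxia and from freshly laid embryos, with the larger of the 2 p-values adjusted over all tested genes. That held for 2291 genes (13.8%), 1019 of them higher (6.12%) and 1272 lower (7.64%). All 5 normoxia libraries lay above all 10 others in CPM, the gene's counts relative to the TMM-scaled library total, at 1049 tested genes (6.3%) and below them at 926 (5.57%). The 10 largest rises and 10 largest falls named below were picked from such genes, so their lack of overlap is not a result. Of the genes higher than the mean, 28.0% were higher than both groups, a further 65.7% had the highest mean in normoxia without passing both tests, and 6.34% had a normoxia mean between the other 2. Of the genes lower than the mean the shares were 34.0%, 60.4% and 5.57%.

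Among the 1019 genes higher than both, 183 were at least 2 log2 units above the nearer group and 99 were under 1 CPM in hypoxia and in freshly laid embryos, 9.72% against 6.14% of all tested genes. A gene that low in both can pass the filter through normoxia alone, and the call itself favours low values there. The higher share is therefore not a result. Among the 1272 lower genes, 152 were at least 2 log2 units below the nearer group. The nearer group was freshly laid embryos for 721 of the higher genes (70.8%) and 832 of the lower ones (65.4%), beside 60.8% of all tested genes. Genes lower than both had longer exon sequence (median 4243 bases) than genes higher than both (2603 bases), against 3304 bases over all tested genes. The part of transcript length in the calls was not tested. The split depended on scaling. With library totals alone in place of TMM, the median difference from the mean was 0.15 on the log2 scale, against -0.02, and the higher share of the calls 64.2%, against 49.4%.

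**Figure D1:**
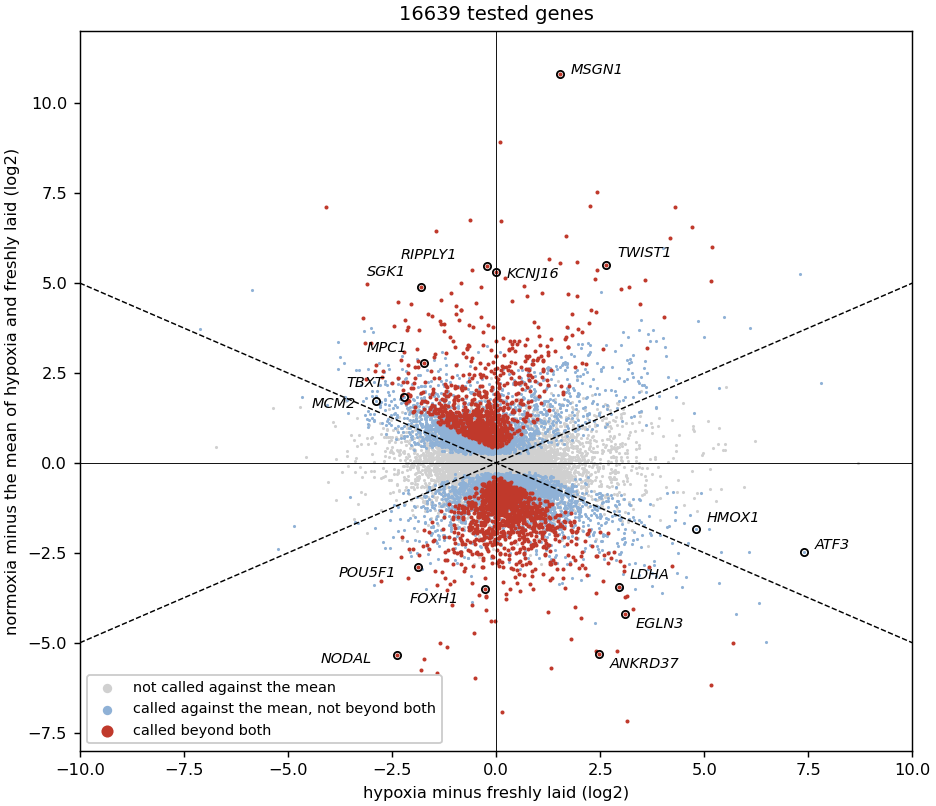
Each point is 1 tested gene, placed by its log2 difference of hypoxia minus freshly laid embryos (horizontal) and of normoxia minus the mean of both (vertical). Outside the dashed lines the normoxia mean lies above or below both other groups; the red points are the 1019 genes higher and 1272 genes lower than both, and the blue points are genes called against the mean alone.

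Genes of the presomitic mesoderm and somites stood higher in normoxia. Of 16 tested genes, 12 were higher than the mean, beside 21.9% of all tested genes, and the other 4 did not pass the test. The median difference was 1.91 on the log2 scale, beside -0.02 over all tested genes. MSGN1 (mesogenin), a transcription factor that commits cells to presomitic mesoderm, had 22.8, 30.8, 28.4, 9.62 and 6.10 CPM in the 5 normoxia libraries, 0, 0, 0.0631, 0 and 0 CPM in hypoxia and 0, 0, 0, 0 and 0 CPM in freshly laid embryos. All 5 normoxia libraries held it, 1 hypoxia library held a trace, and no freshly laid library held a count. That is at least 622-fold higher in normoxia than in freshly laid embryos (over 3 counts for that group), and 1689-fold higher than in hypoxia by summed counts, with a 95% interval of 303 to 66753 that covers counting error only. Its fitted log2 difference from the mean was 10.81 (edgeR adjusted p = 5.88e-08). Without hypoxia replicate 3, the library with the trace, it was 11.60.

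RIPPLY1, a repressor that sets somite boundaries, had 11.4, 29.7, 25.4, 19.6 and 8.72 CPM in normoxia, 0.637, 0.601, 0.126, 0.434 and 0.133 CPM in hypoxia and 0, 0.345, 0.362, 0.358 and 1.15 CPM in freshly laid embryos. Every normoxia library lay above every other library. It was 41.0-fold higher in normoxia than in the nearer group (log2 difference 5.36; edgeR adjusted p for both differences = 5.94e-05). HES7, an oscillating repressor of the segmentation clock, averaged 5.02 ± 1.87 CPM in normoxia, 1.03 ± 0.423 in hypoxia and 0.763 ± 0.563 in freshly laid embryos (SD, n = 5 each, here and below). It was also higher than both (smaller log2 difference 2.28, adjusted p = 0.00711). FOXC2, a forkhead factor of paraxial mesoderm, ran 1.62 to 8.62 CPM in normoxia, 0.126 to 0.463 CPM in hypoxia and 0 to 0.126 CPM in freshly laid embryos, with no overlap. Its adjusted p for both differences was 3.60e-04. TBX6, which acts upstream of MSGN1 in mouse presomitic mesoderm, was higher than the mean (log2 2.67, adjusted p = 0.00213). It did not pass both tests by edgeR (0.0864) and did with DESeq2 (0.0270), limma-voom (0.0147) and total-count scaling (0.0464). Its difference from the mean was 3.29 without freshly laid replicate 5. TBXT (brachyury), of the streak and notochord, averaged 60.2 ± 10.4 CPM in normoxia, 7.90 ± 5.69 in hypoxia and 36.7 ± 28.3 in freshly laid embryos. It was higher than the mean (log2 1.82, adjusted p = 0.00123), and its difference from freshly laid embryos did not pass (log2 0.72, adjusted p = 0.257).

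Transcription factors of the neural plate border, neural crest and placodes were the next group. Of 22 tested genes 13 were higher and 3 lower than the mean, beside 21.9% and 22.5% of all tested genes. Their median was 1.14. TWIST1, a basic helix-loop-helix factor of mesenchyme and crest, had 6.51, 7.46, 6.13, 8.51 and 4.96 CPM in normoxia, 0.521, 0.328, 0.126, 0.372 and 0.464 CPM in hypoxia and 0, 0, 0, 0.0511 and 0.184 CPM in freshly laid embryos. All normoxia libraries lay above the others, and freshly laid embryos had the lowest mean. Normoxia was 18.2-fold above hypoxia, the nearer group (adjusted p for both = 1.45e-04). The difference from the mean was 5.51, and 6.27 without freshly laid replicate 5. EYA2, a transcriptional coactivator and phosphatase, averaged 29.2 CPM in normoxia, 9.54 in hypoxia and 8.47 in freshly laid embryos. It passed both tests. SNAI2 (Slug), a repressor of cadherin genes in migrating cells that also stands in the streak list, ran 29.3 to 45.8 CPM in normoxia, 0.0547 to 2.90 CPM in hypoxia and 1.495 to 8.68 CPM in freshly laid embryos, without overlap. It passed both tests (adjusted p = 0.00580).

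ZIC1, a zinc finger factor of the neural border, averaged 3.91 ± 2.83 CPM in normoxia, 0.118 ± 0.102 in hypoxia and 0 ± 0 in freshly laid embryos. It was at least 121-fold higher in normoxia than in freshly laid embryos, which held no count (over 3 counts for the group). MSX2 and DLX6, homeobox factors of the border and of crest-derived tissue, were also higher than both (smaller log2 differences 2.98 and 2.37). Against these, SOX10, a factor of migrating crest, averaged 0.224 ± 0.151 CPM in normoxia, 1.93 ± 0.808 in hypoxia and 2.34 ± 1.002 in freshly laid embryos. It was 8.37-fold below the nearer group (adjusted p for both = 0.00334). TFAP2C, an AP-2 factor of surface ectoderm and pluripotent cells, was lower as well. It ran 15.4 to 58.5 CPM in normoxia, 69.5 to 263 CPM in hypoxia and 115 to 219 CPM in freshly laid embryos (adjusted p for both = 0.00332). Border and crest genes thus did not all move one way.

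The caudal homeobox gene CDX4, which works with Wnt signals in the growing tail end, had 25.7, 81.1, 42.8, 33.0 and 40.1 CPM in normoxia, 6.54, 2.57, 8.08, 9.24 and 3.71 CPM in hypoxia and 6.60, 5.12, 3.92, 9.15 and 17.5 CPM in freshly laid embryos. All normoxia libraries lay above the rest, 5.24-fold above the nearer group (adjusted p for both = 0.00133). CDX2 averaged 50.7 ± 13.7 CPM in normoxia, 22.3 ± 13.9 in hypoxia and 7.34 ± 3.25 in freshly laid embryos. Its smaller log2 difference was 1.18 (adjusted p = 0.0486). That call was lost in 11 of the 15 fits leaving out 1 library, up to 0.116. Of 39 HOX genes counted by the authors, 11 passed the filter on low counts, which a gene high in normoxia alone can pass. Of these, 6 were higher than the mean, beside 21.9% of all tested genes. Alternative fits filtered anew, so the HOX genes they tested can differ from these 11. Without hypoxia replicate 3, 10 HOX genes were higher. With no filter, 17 were higher and 1 lower among all HOX genes with a count. HOXD1 was called beyond both and averaged 17.5 ± 3.40 CPM in normoxia, 1.29 ± 1.46 in hypoxia and 3.55 ± 1.71 in freshly laid embryos. That call (adjusted p = 0.0286) was lost in 6 of 15 fits, up to 0.0626. HOXB3 (log2 3.38, adjusted p = 7.09e-05) and HOXA3 (log2 2.02, adjusted p = 1.06e-04) rose against the mean. Neither passed both tests (adjusted p = 0.114 and 0.337), and hypoxia was the nearer group, 1.46 below normoxia for HOXB3 and 0.65 for HOXA3.

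Of 30 neural genes counted by the authors, 20 passed the filter on low counts, which a gene high in normoxia alone can pass. Of these 20 tested genes, 9 were higher and 3 lower than the mean, beside 21.9% and 22.5% of all tested genes. With no filter, 10 were higher and 3 lower among all neural genes with a count. The neural genes had a median of 0.99. The median was 1.71 against freshly laid embryos but 0.11 against hypoxia, and hypoxia minus freshly laid had a median of 2.33. The Iroquois homeobox genes IRX2 and IRX1, which pattern the neural plate, rose together. IRX2 averaged 8.54 ± 2.55 CPM in normoxia, 2.08 ± 0.678 in hypoxia and 0.121 ± 0.115 in freshly laid embryos. IRX1 averaged 8.43 ± 1.23 CPM in normoxia, 3.23 ± 1.02 in hypoxia and 0.247 ± 0.166 in freshly laid embryos. Both passed both tests (adjusted p = 0.00797 and 0.0325), though IRX1 lost the call in 7 of 15 fits (up to 0.0740) and with blocks of title numbers as a covariate (0.0640). NKX2-2, of the ventral neural tube, was at least 39.9-fold higher than in freshly laid embryos, which held no count. It passed both tests (adjusted p = 0.0271, lost in 8 of 15 fits, up to 0.0822, and with the title blocks, 0.199). SOX3, an early neural and epiblast factor, averaged 56.4 ± 15.2 CPM in normoxia, 105 ± 34.1 in hypoxia and 153 ± 36.8 in freshly laid embryos. Its fall against both passed (adjusted p = 0.0163). That call ended under total-count scaling (0.123), with neighbouring libraries summed (0.0596) and with the index block as a covariate (0.0759).

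**Figure D2:**
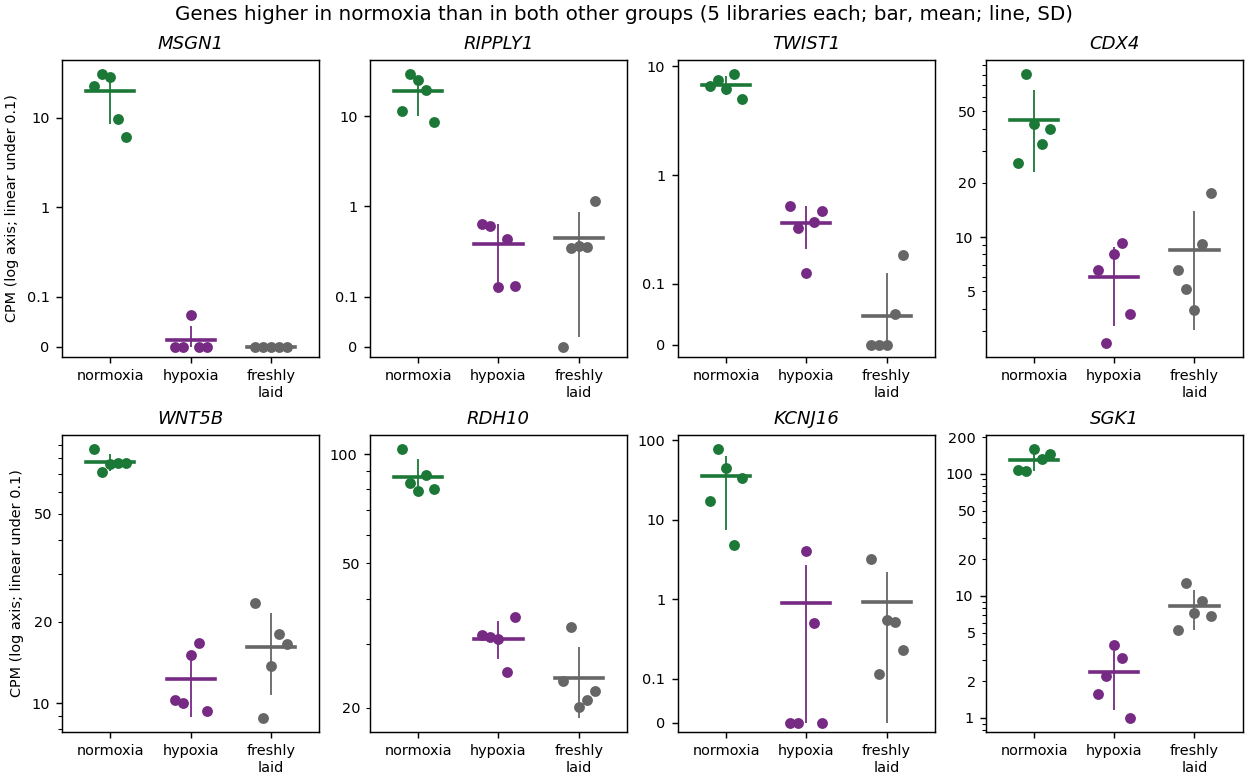
CPM of 8 genes higher in normoxia than in both other groups, on log axes (linear under 0.1 where a library is near 0), 1 point per library with normoxia left, hypoxia in the middle and freshly laid embryos right; the bar is the group mean and the vertical line the SD. For MSGN1, RIPPLY1, TWIST1, CDX4, WNT5B, RDH10, KCNJ16 and SGK1 every normoxia library lies above the 10 others.

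Signalling genes that rose beyond both groups included ligands, receptors and modulators of Wnt and the enzymes that make retinoic acid. WNT5B, a ligand of convergent extension and of the streak, had 86.9, 71.4, 76.3, 77.1 and 77.0 CPM in normoxia, 10.2, 10.004, 15.02, 16.7 and 9.34 CPM in hypoxia and 23.4, 8.80, 13.8, 18.04 and 16.5 CPM in freshly laid embryos. The normoxia libraries all lay above the others, 4.83-fold above the nearer group (adjusted p for both = 1.07e-05). WNT5A, its close relative, averaged 37.1 ± 7.87 CPM in normoxia, 10.3 ± 7.51 in hypoxia and 6.38 ± 0.858 in freshly laid embryos (adjusted p for both = 0.00169). The Wnt receptors FZD1 (smaller log2 difference 1.54) and FZD10 (1.29) rose beyond both, and so did the secreted Wnt binders SFRP1 (1.67) and FRZB (1.95). SP5, a direct target of beta-catenin in vertebrate embryos, averaged 51.4 ± 5.70 CPM in normoxia, 4.65 ± 4.21 in hypoxia and 8.11 ± 4.13 in freshly laid embryos. It was 6.31-fold above the nearer group. LEF1, a nuclear partner of beta-catenin, passed narrowly (adjusted p for both = 0.0492), and not in 14 of the 15 fits leaving out 1 library (up to 0.0998). The co-receptor LRP6 was lower than both (log2 -0.67, adjusted p = 0.00777, 0.138 under total-count scaling). Of the 36 tested Wnt genes, 16 were higher and 5 lower than the mean, beside 21.9% and 22.5% of all tested genes.

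Retinoic acid is made in 2 oxidations, from retinol by RDH10 and on to the acid by ALDH1A2. RDH10 had 103.5, 83.2, 79.0, 87.8 and 80.0 CPM in normoxia, 31.8, 31.4, 30.9, 25.1 and 35.7 CPM in hypoxia and 23.7, 33.4, 20.1, 21.004 and 22.3 CPM in freshly laid embryos. It was 2.80-fold above the nearer group with no overlap (adjusted p for both = 1.40e-05). ALDH1A2 averaged 47.0 ± 14.99 CPM in normoxia, 14.4 ± 5.08 in hypoxia and 12.01 ± 4.09 in freshly laid embryos (adjusted p for both = 0.00109). The receptor RARG was lower than both, at 30.2 to 68.5 CPM in normoxia, 78.8 to 219 CPM in hypoxia and 84.7 to 163 CPM in freshly laid embryos. Its adjusted p for both was 0.00108. Of the 15 tested genes of the pathway 5 were higher and 5 lower than the mean, beside 21.9% and 22.5% of all tested genes. Total-count scaling gave 6 and 1. The higher count was 3 without normoxia replicate 2 or 3, and the lower count 3 without normoxia replicate 3, 4 or 5.

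In the FGF pathway the ligands FGF3 and FGF8 went opposite ways. FGF3 rose beyond both (smaller log2 difference 3.09, adjusted p = 0.00801; 3.83 without hypoxia replicate 4). FGF8, the ligand of the gastrulating streak and tail bud, averaged 0.887 ± 0.376 CPM in normoxia, 6.1998 ± 2.17 in hypoxia and 5.97 ± 4.37 in freshly laid embryos. It was lower than both (adjusted p = 0.0139). Limma-voom did not call it beyond both (0.322), and among the 5 libraries with an index number of 12 or over its difference from the mean was 0.34. SPRY2, a feedback inhibitor that ERK signalling induces, had 13.6, 10.9, 13.9, 12.3 and 13.5 CPM in normoxia, 41.6, 32.3, 50.4, 62.0 and 44.3 CPM in hypoxia and 24.8, 23.7, 43.7, 49.2 and 32.5 CPM in freshly laid embryos. It was 2.71-fold below the nearer group with no overlap (adjusted p for both = 3.38e-04). ETV5, a transcription factor likewise induced by FGF, was lower than both (smaller log2 difference -0.70). FLRT3, a membrane protein that binds FGF receptors, averaged 22.4 ± 11.3 CPM in normoxia, 5.95 ± 3.56 in hypoxia and 2.37 ± 1.16 in freshly laid embryos. It was higher than both (adjusted p = 0.00883). Of 24 tested genes, 3 were higher (5 without hypoxia replicate 4) and 8 lower than the mean. The shares of all tested genes were 21.9% and 22.5%.

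Of 37 tested BMP and TGF-beta genes, 12 were higher and 4 lower than the mean, beside 21.9% and 22.5% of all tested genes. ID2, an inhibitor of basic helix-loop-helix factors that BMP induces, averaged 38.3 ± 21.2 CPM in normoxia, 5.22 ± 4.16 in hypoxia and 3.83 ± 3.67 in freshly laid embryos. It was 7.33-fold above the nearer group (adjusted p for both = 0.00377). SMAD2, which carries Nodal and activin signals to the nucleus, was lower. It ran 31.8 to 35.996 CPM in normoxia, 51.9 to 65.8 CPM in hypoxia and 56.8 to 70.4 CPM in freshly laid embryos (adjusted p for both = 2.92e-04). In the Notch list, 6 of 19 tested genes were higher and 5 lower, beside the same shares of all tested genes. The ligand JAG1 was higher than both (log2 1.10, adjusted p = 0.00738), while the receptor NOTCH3 was lower (log2 -1.28, adjusted p = 0.00405). The coactivator MAML1 was lower too (-0.82, adjusted p = 0.0282; lost in 5 of 15 fits, up to 0.0832, and under total-count scaling, 0.259). The ligand JAG2 averaged 9.57 ± 1.64 CPM in normoxia, 51.3 ± 14.2 in hypoxia and 12.9 ± 5.46 in freshly laid embryos. It was lower than the mean (log2 -1.43, adjusted p = 1.03e-04), while normoxia minus freshly laid was -0.43 on the log2 scale (adjusted p = 0.197).

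Potassium channels, a proton pump and a junction protein were among the genes with the largest rises. KCNJ16, an inward rectifier potassium channel of kidney and other epithelia in mammals, had 16.97, 77.9, 44.4, 4.74 and 34.0 CPM in normoxia, 0, 0, 4.04, 0.496 and 0 CPM in hypoxia and 3.20, 0.115, 0.543, 0.511 and 0.230 CPM in freshly laid embryos. Most of the other libraries lay near 0, while hypoxia replicate 3 and freshly laid replicate 1 carried most of their groups' counts. Its difference from the mean was 5.30 (adjusted p for both = 0.00526), 6.72 without hypoxia replicate 3 and 5.98 without freshly laid replicate 1. KCNG4, a modulatory subunit of voltage-gated potassium channels, averaged 2.61 ± 1.31 CPM in normoxia, 0.0749 ± 0.0525 in hypoxia and 0.0561 ± 0.0994 in freshly laid embryos. Its difference from the mean was 5.14, and 6.01 without freshly laid replicate 5. ATP12A, a proton-potassium pump of mammalian skin and colon, averaged 3.61 ± 1.02 CPM in normoxia, 0 ± 0 in hypoxia and 0.0929 ± 0.180 in freshly laid embryos. It was at least 102-fold higher than in hypoxia, which held no count (over 3 counts for the group). Its difference from the mean was 7.10, and 8.29 without freshly laid replicate 5. CLDN2, a tight junction protein that forms cation pores, averaged 0.927 ± 0.128 CPM in normoxia, 0.0126 ± 0.0282 in hypoxia and 0.0184 ± 0.0411 in freshly laid embryos. By summed counts it was 75.7-fold higher than in hypoxia (95% interval 13.3 to 3016) and 41.8-fold higher than in freshly laid embryos (11.3 to 349, counting error only). Its fitted difference from the mean, 5.36, was 6.41 without freshly laid replicate 5 and 6.14 without hypoxia replicate 3.

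ZNF750, which drives differentiation of human epidermis, averaged 2.50 ± 0.756 CPM in normoxia, 0.0126 ± 0.0282 in hypoxia and 0.0236 ± 0.0323 in freshly laid embryos. It was 206-fold higher than in hypoxia by summed counts (95% interval 36.7 to 8172) and 114-fold higher than in freshly laid embryos (31.2 to 944). Its difference from the mean was 6.76, and 7.54 without hypoxia replicate 3. KRT23, a type I keratin, was 86.1-fold higher than in hypoxia (23.6 to 715) and at least 63.4-fold higher than in freshly laid embryos, which held no count. Its log2 difference from the mean was 7.15, and 8.30 without hypoxia replicate 4. GCM1, the transcription factor of the placental trophoblast in mammals, had no count in hypoxia, and was 82.8-fold higher in normoxia than in freshly laid embryos (14.5 to 3300). It ran 0.572 to 1.54 CPM in normoxia, and its log2 difference from the mean was 6.44 (7.19 without freshly laid replicate 3). SPP2, a secreted phosphoprotein made mainly by liver in mammals, averaged 12.2 ± 9.405 CPM in normoxia, 0.148 ± 0.274 in hypoxia and 0.0223 ± 0.0307 in freshly laid embryos. Its summed counts were 571-fold higher than in freshly laid embryos (158 to 4717). Its log2 difference from the mean was 7.54, and 8.58 without hypoxia replicate 3. For each of these 4 genes the normoxia libraries lay above the 10 others, which was a condition for naming them among the largest rises.

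Markers of yolk tissue and extraembryonic epithelium did not move as one. Of 13 tested genes, 8 were higher and 2 lower than the mean (median 1.77), beside 21.9% and 22.5% of all tested genes. FGA, the fibrinogen alpha chain secreted by liver and yolk sac, averaged 62.9 ± 72.4 CPM in normoxia, 3.55 ± 3.81 in hypoxia and 0.659 ± 0.587 in freshly laid embryos. It was higher than both (adjusted p = 0.00443, 0.0567 by limma-voom). Its log2 difference from the mean was 5.37, and 4.41 without normoxia replicate 2, which held 185 CPM. FABP2, an intestinal and yolk fatty acid binder, was at least 64.4-fold higher than in freshly laid embryos, which held no count. KRT8, a keratin of simple epithelia that also stands in the junction list, averaged 236 ± 48.1 CPM in normoxia, 1472 ± 394 in hypoxia and 551 ± 175 in freshly laid embryos. Both differences passed (adjusted p = 0.00163). Summed over all 17 listed genes, the level ran 670 to 2027 CPM in normoxia (median 1327), 2600 to 5054 CPM in hypoxia (median 4292) and 761 to 1463 CPM in freshly laid embryos (median 1362). AHSG had no count in hypoxia or freshly laid embryos, and FABP2 none in freshly laid embryos. The part of yolk tissue carried along with the embryo in the results was not tested.

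Targets of hypoxia-inducible factors were lower in normoxia. Of 30 tested targets, 24 were lower than the mean and 18 lower than both groups, beside 22.5% and 7.64% of all tested genes. The median difference from the mean was -2.11. Seen from each side, the median was -3.28 against hypoxia and -0.91 against freshly laid embryos (both comparisons use the same normoxia libraries), and freshly laid embryos were the nearer group for 29 of 30, beside the 60.8% of all tested genes. EGLN3, a prolyl hydroxylase that HIF itself induces, had 10.7, 14.001, 17.9, 11.5 and 14.2 CPM in normoxia, 839, 714, 614, 762.3 and 699.9 CPM in hypoxia and 82.3, 62.9, 105, 107 and 69.6 CPM in freshly laid embryos. The 3 groups did not overlap, with freshly laid embryos in the middle. Normoxia was 53.1-fold below hypoxia and 6.24-fold below freshly laid embryos (adjusted p for both = 5.51e-07).

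ANKRD37, a short ankyrin protein induced by HIF, had 3.18, 2.59, 5.33, 7.23 and 8.68 CPM in normoxia, 381, 353, 632, 683 and 475 CPM in hypoxia and 50.9, 58.4, 179, 115 and 49.7 CPM in freshly laid embryos. Normoxia libraries were lowest throughout, 16.8-fold below the nearer group (adjusted p for both = 1.21e-05). DDIT4 (REDD1), an inhibitor of mTOR complex 1, averaged 48.4 ± 8.89 CPM in normoxia, 2559 ± 334 in hypoxia and 260.3 ± 108 in freshly laid embryos (smaller log2 difference -2.43). CA9, a carbonic anhydrase of the cell surface, averaged 1.17 ± 0.442 CPM in normoxia, 46.1 ± 19.1 in hypoxia and 5.39 ± 2.26 in freshly laid embryos. STC1, the hormone stanniocalcin 1, averaged 2.24 ± 0.593 CPM in normoxia, 68.8 ± 14.98 in hypoxia and 18.4 ± 13.9 in freshly laid embryos. Both were lower than both groups (adjusted p = 8.45e-04 and 7.32e-05). The collagen prolyl hydroxylase P4HA1 averaged 65.4 CPM in normoxia, 907 in hypoxia and 171 in freshly laid embryos. MXI1, an antagonist of MYC, averaged 18.8 CPM in normoxia, 156 in hypoxia and 33.8 in freshly laid embryos. Not all targets were lowest in normoxia. VEGFA, the vascular growth factor, averaged 11.9 ± 1.77 CPM in normoxia, 61.9 ± 11.2 in hypoxia and 10.4 ± 3.31 in freshly laid embryos, so its normoxia mean lay between the others. PFKFB4, a regulator of glycolytic flux, was higher than the mean (log2 0.81, adjusted p = 0.00282; 0.0840 for both differences, and 0.0398 by limma-voom).

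The sensors themselves followed in part. EGLN1, the main prolyl hydroxylase of HIF in mammals and, like EGLN3, a member of the target list too, had 18.8, 15.4, 16.8, 17.2 and 15.8 CPM in normoxia, 64.7, 71.1, 51.05, 81.6 and 66.9 CPM in hypoxia and 38.6, 34.0, 30.6, 31.4 and 30.3 CPM in freshly laid embryos. It was 1.96-fold below the nearer group with no overlap (adjusted p for both = 2.20e-04). HIF3A, a HIF alpha subunit with short inhibitory forms, averaged 48.6 ± 5.97 CPM in normoxia, 154 ± 8.04 in hypoxia and 105 ± 18.6 in freshly laid embryos. Both of its differences passed as well (adjusted p = 5.94e-05). HIF1A averaged 154.9 CPM in normoxia, 98.6 in hypoxia and 119 in freshly laid embryos. It was higher than the mean by 0.52 on the log2 scale (adjusted p = 0.0301) and did not pass both tests (0.309). Of the 12 tested sensors and factors, 2 were higher and 4 lower than the mean, and 5 and 4 under total-count scaling. The shares of all tested genes against the mean were 21.9% and 22.5%.

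Of 20 tested glycolysis genes, 16 were lower than the mean, 9 were lower than both, and 18 had their lowest mean in normoxia (median -1.18). All tested genes had shares of 22.5%, 7.64% and 36.4%. LDHA, which turns pyruvate into lactate and is also a listed HIF target, had 136, 153, 232, 171 and 248 CPM in normoxia, 5016, 5324, 3643, 6365 and 7867 CPM in hypoxia and 611, 620.0, 896, 799.9 and 740.0 CPM in freshly laid embryos. Groups did not overlap, and normoxia was 30.0-fold below hypoxia and 3.90-fold below freshly laid embryos (adjusted p for both = 1.91e-05). HK1, hexokinase 1, averaged 32.4 ± 3.87 CPM in normoxia, 361 ± 74.3 in hypoxia and 136 ± 43.2 in freshly laid embryos (adjusted p for both = 1.00e-05). ENO1, an enolase, averaged 3130.4 ± 1224 CPM in normoxia, 21009 ± 5729 in hypoxia and 10858 ± 1703 in freshly laid embryos. Its paralogue ENO2 averaged 5.62 CPM in normoxia, 84.1 in hypoxia and 11.8 in freshly laid embryos. The glucose transporter SLC2A1 and pyruvate kinase PKM had their highest mean in freshly laid embryos. SLC2A1 averaged 159.2 ± 33.2 CPM in normoxia, 483 ± 123 in hypoxia and 671 ± 102 in freshly laid embryos. PKM averaged 1574 ± 624 CPM in normoxia, 3982 ± 801 in hypoxia and 6050.1 ± 291 in freshly laid embryos. Both were lower in normoxia than in both groups (adjusted p = 6.83e-05 and 8.72e-04). PFKFB3, which makes the activator of phosphofructokinase and is a listed HIF target, was 3.84-fold below the nearer group. SLC16A3, the lactate exporter, averaged 4.76 CPM in normoxia, 24.7 in hypoxia and 10.5 in freshly laid embryos.

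Demethylases of histones and DNA, many of which need molecular oxygen, were mostly lower. Of 19 tested genes 14 were lower and 1 higher than the mean, and 8 were lower than both groups (median -0.85). All tested genes had shares of 22.5%, 21.9% and 7.64%. The demethylase count beyond both was 5 without normoxia replicate 5 and 5 with normoxia libraries of neighbouring title numbers summed. KDM3A, an H3K9 demethylase and itself a HIF target, had 62.3, 37.2, 52.8, 53.3 and 45.0 CPM in normoxia, 618, 701, 665, 886 and 811 CPM in hypoxia and 182, 175, 196, 182 and 151.5 CPM in freshly laid embryos. The groups did not overlap, and normoxia was 3.54-fold below the nearer group (adjusted p for both = 1.12e-06). KDM4B averaged 31.4 ± 2.75 CPM in normoxia, 261 ± 29.3 in hypoxia and 68.7 ± 11.9 in freshly laid embryos. KDM4C averaged 6.72 CPM in normoxia, 20.9 in hypoxia and 11.96 in freshly laid embryos. Both also stand in the HIF target list. The other 5 do not. KDM6A, which removes H3K27 methylation, averaged 39.5 CPM in normoxia, 90.0 in hypoxia and 54.7 in freshly laid embryos. Its relative KDM6B averaged 3.17 CPM in normoxia, 22.3 in hypoxia and 6.35 in freshly laid embryos. TET1, an oxidase of 5-methylcytosine that is also in the pluripotency list, averaged 16.03 ± 4.24 CPM in normoxia, 56.8 ± 5.13 in hypoxia and 30.3 ± 9.69 in freshly laid embryos (adjusted p for both = 0.00662). KDM2B and KDM8 were lower than both by 0.72 and 0.81 on the log2 scale.

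Some genes of the epiblast and of the Nodal signal fell. Of 13 tested pluripotency genes, 5 were lower than the mean, 4 of them lower than both, and the other 8 did not pass (median -0.45). Among all tested genes 22.5% were lower than the mean and 7.64% lower than both. POU5F1 (OCT4), the core pluripotency factor, had 5.21, 1.12, 1.84, 6.07 and 3.91 CPM in normoxia, 7.06, 11.8, 18.6, 21.1 and 10.8 CPM in hypoxia and 40.4, 40.7, 39.7, 64.0 and 70.5 CPM in freshly laid embryos. Normoxia was lowest in every library and freshly laid embryos highest, and the difference from the nearer group was 3.84-fold (adjusted p for both = 0.00344). PRDM14, a repressor that guards pluripotency and germ cells in mouse, averaged 3.81 ± 1.94 CPM in normoxia, 14.1 ± 8.04 in hypoxia and 96.2 ± 21.7 in freshly laid embryos. This fall passed both tests (adjusted p = 0.00691), and did not by limma-voom (0.0599) or with the title blocks (0.0529). KLF5, a Kruppel-like factor of early embryos, averaged 61.1 ± 13.6 CPM in normoxia, 192 ± 62.8 in hypoxia and 161 ± 32.2 in freshly laid embryos (adjusted p = 4.53e-04).

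FOXH1, the forkhead partner of SMAD2 that carries Nodal signals to DNA, had 7.47, 5.41, 9.42, 18.8 and 14.02 CPM in normoxia, 67.8, 127, 149.8, 146 and 73.8 CPM in hypoxia and 105, 106, 82.0, 183 and 201.3 CPM in freshly laid embryos. It was 10.3-fold below the nearer group, with no overlap (adjusted p for both = 1.91e-05). NODAL itself averaged 0.0897 ± 0.0858 CPM in normoxia, 1.65 ± 2.41 in hypoxia and 8.63 ± 5.75 in freshly laid embryos. Its groups overlapped, with an adjusted p of 0.0237. Its call was lost in 5 of 15 fits leaving out 1 library (up to 0.0854), with the title blocks (0.0605) and by limma-voom (0.548). Its difference from the mean, -5.35, was -6.03 without normoxia replicate 5 and -4.73 without hypoxia replicate 3. EOMES, a T-box factor of mesendoderm, averaged 28.1 ± 15.3 CPM in normoxia, 136 ± 38.2 in hypoxia and 86.4 ± 50.7 in freshly laid embryos. Its fall was called beyond both (adjusted p = 0.0282, lost in 4 of 15 fits, up to 0.0790, and with the title blocks, 0.0736). Of 19 tested genes of the Nodal signal and streak, 5 were higher and 6 lower than the mean. Over all tested genes 21.9% were higher and 22.5% lower.

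**Figure D3:**
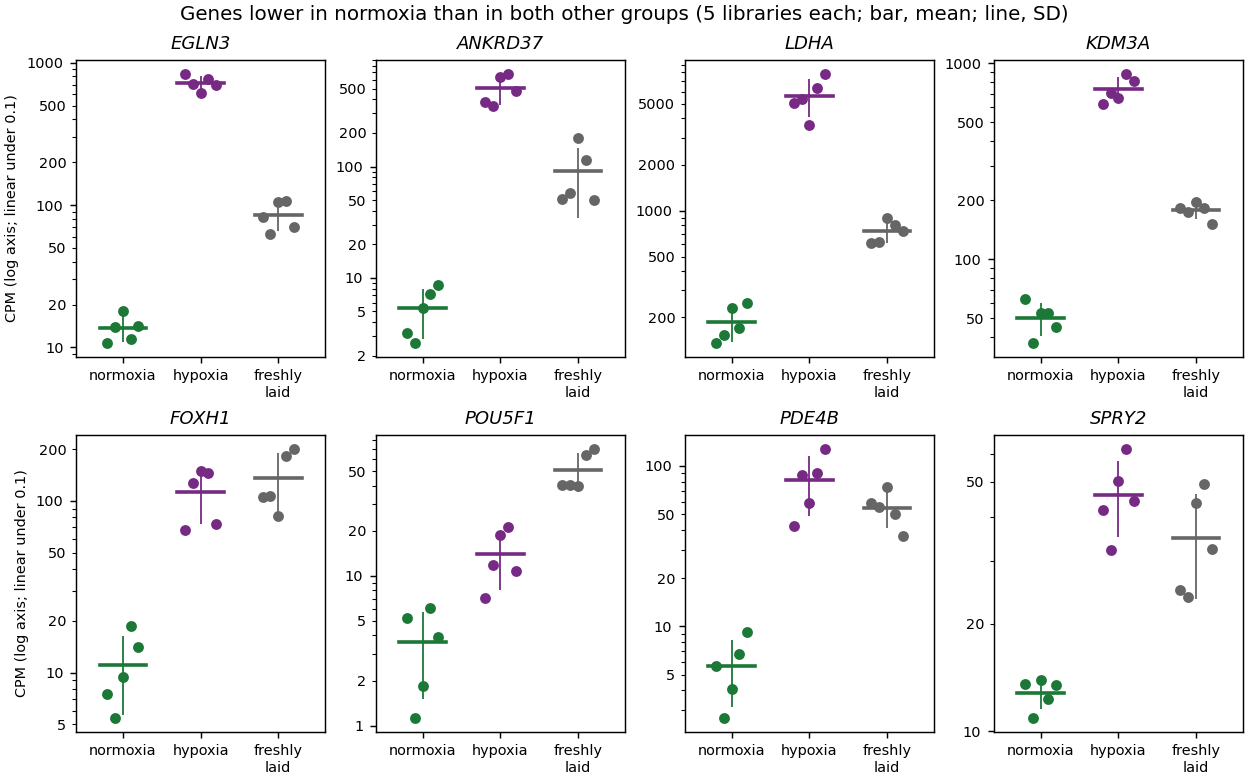
CPM of 8 genes lower in normoxia than in both other groups, on log axes, 1 point per library with normoxia left, hypoxia in the middle and freshly laid embryos right; the bar is the group mean and the vertical line the SD. EGLN3, ANKRD37, LDHA and KDM3A are highest in hypoxia, FOXH1 and POU5F1 in freshly laid embryos, and in all 8 genes, PDE4B and SPRY2 included, every normoxia library lies below the 10 others.

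The largest falls beyond both, picked among genes without overlap, also held genes outside those lists. PDE4B, a phosphodiesterase that breaks down cyclic AMP, had 5.64, 2.67, 4.05, 6.74 and 9.20 CPM in normoxia, 42.5, 88.3, 58.6, 90.3 and 128 CPM in hypoxia and 58.9, 55.4, 74.0, 49.98 and 36.4 CPM in freshly laid embryos. It was 9.73-fold below the nearer group without overlap (adjusted p for both = 1.16e-05). PARP6, a mono-ADP-ribosyltransferase, averaged 0.562 ± 0.316 CPM in normoxia, 6.84 ± 1.86 in hypoxia and 8.13 ± 3.46 in freshly laid embryos (adjusted p = 5.94e-05). SERTM1, a small transmembrane protein, averaged 1.35 ± 0.241 CPM in normoxia, 17.2 ± 15.1 in hypoxia and 25.6 ± 29.0 in freshly laid embryos. At low levels, FBXO40, a ubiquitin ligase subunit of muscle, averaged 0.0736 ± 0.101 CPM in normoxia, 6.21 ± 4.49 in hypoxia and 2.51 ± 1.43 in freshly laid embryos. Its log2 difference from the mean was -5.70, with -6.31 without normoxia replicate 4 and -6.35 without replicate 5. SH2D1A, an adaptor of T and natural killer cells, averaged 0.240 ± 0.221 CPM in normoxia, 5.22 ± 6.13 in hypoxia and 7.52 ± 5.67 in freshly laid embryos. Its smaller log2 difference was -4.46, and -3.41 without hypoxia replicate 1. CASQ1, the calcium store protein of skeletal muscle, and ZBTB32, a zinc finger repressor of lymphocytes, were each 8.32-fold below the nearer group (adjusted p for both = 9.41e-04 and 0.00170).

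Of 37 tested matrix genes, 13 were lower and 8 higher than the mean (5 higher without normoxia replicate 2), and of 19 tested cadherin and junction genes, 10 were lower and 4 higher. Over all tested genes the shares were 22.5% lower and 21.9% higher. Under total-count scaling the matrix genes were even, with 9 lower and 9 higher, and the junction genes had 7 lower and 4 higher. LAMB1, a laminin chain of basement membrane, averaged 381 ± 33.0 CPM in normoxia, 939 ± 253 in hypoxia and 584 ± 51.01 in freshly laid embryos (adjusted p for both = 0.0129, and 0.0720 with neighbouring libraries summed). The tenascin TNC averaged 30.7 ± 11.8 CPM in normoxia, 80.1 ± 11.8 in hypoxia and 99.1 ± 39.2 in freshly laid embryos (adjusted p = 0.00231). The junction scaffold TJP3 averaged 22.4 ± 2.10 CPM in normoxia, 84.2 ± 14.7 in hypoxia and 43.6 ± 4.47 in freshly laid embryos. Cingulin, CGN, averaged 18.7 CPM in normoxia, 55.4 in hypoxia and 41.2 in freshly laid embryos. Each passed both tests. In the other direction, the cadherins CDH6 (4.54-fold above the nearer group, adjusted p for both = 0.00255) and CDH20 (smaller log2 difference 1.52) were higher. So was the membrane metalloproteinase MMP16 (adjusted p = 0.0218, lost in 2 of 15 fits, up to 0.0811). LOX, the collagen crosslinking oxidase that is also a HIF target, averaged 7.26 ± 1.62 CPM in normoxia, 99.9 ± 20.1 in hypoxia and 10.2 ± 2.81 in freshly laid embryos. It was lower than the mean (adjusted p = 7.86e-07) and did not pass against freshly laid embryos (0.0986).

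In the insulin-like growth factor axis, 7 of 18 tested genes were lower and 2 higher than the mean. Over all tested genes 22.5% were lower and 21.9% higher. The receptor IGF1R averaged 91.9 ± 13.3 CPM in normoxia, 172 ± 34.2 in hypoxia and 144 ± 36.3 in freshly laid embryos. It passed both tests (adjusted p = 0.0195, lost in 3 of 15 fits, up to 0.0579, and with the title blocks, 0.0657). IGF2BP3, an RNA-binding protein of IGF2 transcripts, averaged 106 ± 9.67 CPM in normoxia, 205 ± 51.1 in hypoxia and 187 ± 29.6 in freshly laid embryos (adjusted p = 0.00223). Its relatives IGF2BP1 (log2 -0.76, adjusted p = 0.00337, 0.0806 under total-count scaling) and IGF2BP2 (-0.36) were lower as well. The binding protein IGFBP3, also a HIF target, averaged 3.98 ± 0.818 CPM in normoxia, 65.2 ± 15.6 in hypoxia and 9.56 ± 3.51 in freshly laid embryos (adjusted p for both = 0.00196). IGFBP1 averaged 5.28 ± 2.31 CPM in normoxia, 66.9 ± 20.7 in hypoxia and 8.97 ± 1.79 in freshly laid embryos. It was lower than the mean (adjusted p = 6.90e-06) and did not pass both tests (0.0821).

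Many nuclear genes for mitochondrial proteins rose. Of 30 tested genes of oxidative phosphorylation, 20 were higher than the mean and 13 higher than both, and 23 had their highest mean in normoxia (median 0.51). All tested genes had shares of 21.9%, 6.12% and 33.7%. The count beyond both was 8 with the title blocks as a covariate and 9 with neighbouring normoxia libraries summed. Under total-count scaling it was 16. Of 46 mitochondrial ribosome genes 23 were higher and 4 lower (2 lower without normoxia replicate 2; 37 higher and 2 lower under total-count scaling). Of 22 import and folding genes 14 were higher and 2 lower, and of 25 citrate cycle and pyruvate entry genes 13 higher and 4 lower. These counts stand beside 21.9% higher and 22.5% lower over all tested genes. MPC1, a subunit of the carrier that brings pyruvate into the mitochondrion, had 51.1, 84.4, 57.9, 49.6 and 86.0 CPM in normoxia, 5.04, 6.61, 9.78, 3.16 and 1.72 CPM in hypoxia and 19.5, 20.7, 17.7, 12.8 and 16.3 CPM in freshly laid embryos. Its groups did not overlap, and normoxia was 3.78-fold above the nearer group (adjusted p for both = 8.47e-04). The partner subunit MPC2 averaged 99.2 ± 29.3 CPM in normoxia, 41.7 ± 13.8 in hypoxia and 50.9 ± 4.32 in freshly laid embryos (adjusted p = 0.00781, and 0.0629 with the title blocks).

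TOMM34, a cochaperone of mitochondrial import, had 37.9, 50.2, 50.9, 83.5 and 51.4 CPM in normoxia, 1.45, 1.20, 2.65, 2.05 and 1.79 CPM in hypoxia and 13.9, 19.9, 12.1, 12.3 and 23.0 CPM in freshly laid embryos. All 3 groups stood apart, hypoxia lowest, and normoxia was 3.37-fold above freshly laid embryos (adjusted p for both = 2.33e-04). ATP5MC3, a subunit of the membrane ring of ATP synthase, had 315, 472, 391, 331 and 518 CPM in normoxia, 74.3, 66.3, 108, 86.3 and 67.3 CPM in hypoxia and 218, 264, 207, 184 and 263 CPM in freshly laid embryos. Normoxia again lay above every other library (adjusted p for both = 0.00349). NDUFA5, of complex I, averaged 105 ± 18.05 CPM in normoxia, 50.4 ± 7.64 in hypoxia and 43.8 ± 9.65 in freshly laid embryos. Among the proteins of the mitochondrial ribosome, MRPL18 averaged 121 ± 9.65 CPM in normoxia, 25.9 ± 4.55 in hypoxia and 60.4 ± 7.89 in freshly laid embryos. MRPL28 averaged 83.5 ± 4.94 CPM in normoxia, 28.4 ± 2.90 in hypoxia and 52.7 ± 13.4 in freshly laid embryos. All 3 were higher than both groups, though MRPL28 lost the call with neighbouring libraries summed (0.0572). The chaperonin HSPD1 averaged 1047 ± 146 CPM in normoxia, 408 ± 43.6 in hypoxia and 595 ± 68.0 in freshly laid embryos. The small import chaperone TIMM9 averaged 26.4 ± 3.35 CPM in normoxia, 6.10 ± 1.08 in hypoxia and 12.4 ± 0.972 in freshly laid embryos. SUCLG1, a subunit of succinyl-CoA ligase, averaged 143 ± 28.9 CPM in normoxia, 53.1 ± 9.66 in hypoxia and 73.4 ± 5.09 in freshly laid embryos. Each of these folding, import and citrate cycle genes passed both tests as well. IDH3A, of the NAD-linked isocitrate dehydrogenase, averaged 94.9 CPM in normoxia, 39.9 in hypoxia and 51.4 in freshly laid embryos. IDH1, the enzyme of cytosol and peroxisome in the same list, averaged 115 ± 48.3 CPM in normoxia, 35.9 ± 12.3 in hypoxia and 25.7 ± 1.99 in freshly laid embryos. These isocitrate dehydrogenases were also higher than both groups.

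Of 27 tested antioxidant genes 13 were higher and 5 lower than the mean (3 lower without normoxia replicate 3, 4 or 5). Among all tested genes 21.9% were higher and 22.5% lower. PRDX3, the mitochondrial peroxiredoxin, had 53.9, 61.7, 62.0, 59.6 and 80.1 CPM in normoxia, 14.99, 15.9, 23.3, 20.96 and 16.97 CPM in hypoxia and 22.05, 29.8, 26.2, 20.5 and 25.3 CPM in freshly laid embryos. It was 2.56-fold above the nearer group without overlap (adjusted p for both = 5.74e-05). Its electron donor TXN2, mitochondrial thioredoxin, averaged 127 CPM in normoxia, 78.0 in hypoxia and 81.4 in freshly laid embryos. TXNRD3, a thioredoxin reductase, passed both tests (adjusted p = 0.0276, lost in 4 of 15 fits, up to 0.0819). NFE2L2 (NRF2), the regulator of antioxidant genes, averaged 37.1 ± 12.9 CPM in normoxia, 21.1 ± 4.001 in hypoxia and 8.66 ± 2.24 in freshly laid embryos. It passed too (adjusted p = 0.0294, lost in 5 of 15 fits, up to 0.101, and with the title blocks, 0.0738). Of 31 tested proteasome genes, 19 were higher than the mean, beside 21.9% of all tested genes, and the other 12 did not pass (median 0.39). The core subunit PSMA5 averaged 143 ± 11.1 CPM in normoxia, 31.3 ± 7.65 in hypoxia and 88.6 ± 14.1 in freshly laid embryos. PSMA6 averaged 225 ± 31.4 CPM in normoxia, 85.8 ± 9.42 in hypoxia and 132 ± 23.7 in freshly laid embryos. Both were higher than both groups (adjusted p = 0.00776 and 0.00167).

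**Figure D4:**
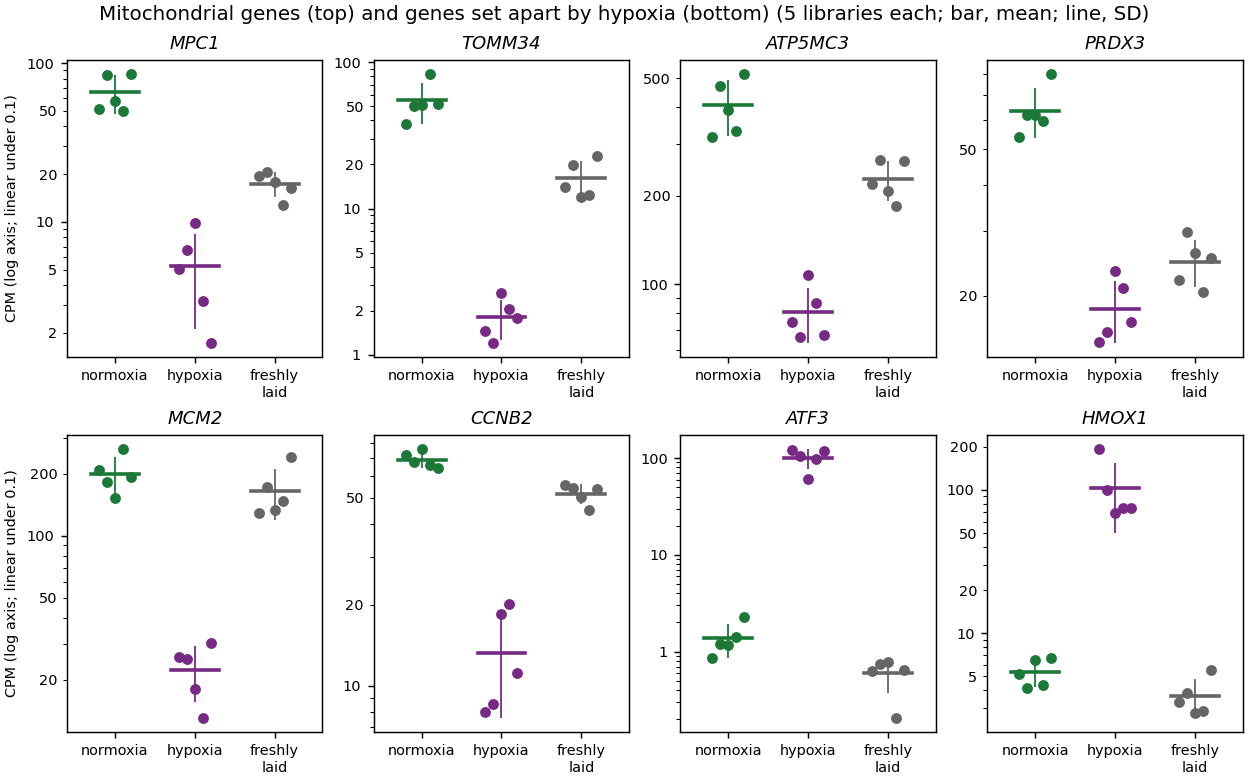
CPM of 8 genes on log axes, 1 point per library with normoxia left, hypoxia in the middle and freshly laid embryos right; the bar is the group mean and the vertical line the SD. MPC1, TOMM34, ATP5MC3 and PRDX3 are higher in normoxia than in every other library, while in MCM2, CCNB2, ATF3 and HMOX1 the freshly laid mean lies near the normoxia mean and hypoxia is set apart.

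For cell cycle genes the difference from the mean came mainly from hypoxia. Of 44 tested replication genes 32 were higher than the mean (median 0.66), and of 35 tested mitosis genes 31 (median 0.99), beside 21.9% of all tested genes. Against hypoxia the medians were 1.07 for replication and 1.82 for mitosis, and against freshly laid embryos 0.26 and 0.23. MCM2, a subunit of the replicative helicase, had 209, 182, 153, 265 and 193 CPM in normoxia, 25.7, 25.3, 17.98, 13.02 and 30.2 CPM in hypoxia and 129.8, 172, 134, 147 and 241.9 CPM in freshly laid embryos. Normoxia and freshly laid libraries overlapped and all hypoxia libraries were lower. Normoxia minus hypoxia was 3.16 on the log2 scale (adjusted p = 2.49e-08), and normoxia minus freshly laid 0.28 (adjusted p = 0.347).

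CCNB2, a cyclin of mitotic entry, had 71.9, 67.6, 76.0, 66.1 and 64.6 CPM in normoxia, 7.99, 8.53, 18.6, 20.1 and 11.1 CPM in hypoxia and 55.6, 54.1, 50.4, 44.9 and 54.03 CPM in freshly laid embryos. Its normoxia libraries were all highest, yet the difference from freshly laid embryos did not pass (log2 0.42, adjusted p = 0.144), against 2.39 from hypoxia (adjusted p = 3.00e-07). CCNB1, its paralogue, averaged 149.6 ± 16.3 CPM in normoxia, 34.5 ± 19.4 in hypoxia and 108 ± 19.7 in freshly laid embryos (adjusted p = 2.43e-04 against the mean and 0.324 for both). DEPDC1B, a regulator of mitotic detachment, averaged 21.4 ± 2.44 CPM in normoxia, 2.85 ± 1.65 in hypoxia and 25.3 ± 7.23 in freshly laid embryos. Its normoxia mean lay between the other groups. A smaller set of cycle genes, 9 of 44 in replication and 2 of 35 in mitosis, was higher than both, beside 6.12% of all tested genes. RRM2, the small subunit of ribonucleotide reductase, averaged 258 ± 66.6 CPM in normoxia, 14.4 ± 6.59 in hypoxia and 106 ± 21.4 in freshly laid embryos (adjusted p for both = 0.00360). CDC45 of the helicase (adjusted p = 0.00777) and the sliding clamp PCNA (0.0342, lost in 6 of 15 fits, up to 0.102) passed as well. The mitosis genes were the kinesins KIF23 (adjusted p = 0.0428, lost in 8 of 15 fits, up to 0.105) and CENPE (0.0403, lost in 9, up to 0.0966). Under total-count scaling neither passed both tests (0.0660 and 0.0564), and the mitosis count was 0 to 4 when 1 library was left out (4 without hypoxia replicate 4).

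Stress genes showed the same shape the other way up. Of 29 tested genes of ATF4 and the unfolded protein response, 22 were lower than the mean, 2 were lower than both, and 17 had a normoxia mean between the other groups. All tested genes had shares of 22.5%, 7.64% and 30.0%. For the 29 genes, the medians follow. The median was -2.72 against hypoxia and 0.48 against freshly laid embryos. ATF3, a stress-induced transcription factor, had 0.868, 1.20, 1.18, 1.42 and 2.29 CPM in normoxia, 120.4, 106, 60.6, 97.8 and 119 CPM in hypoxia and 0.628, 0.748, 0.784, 0.204 and 0.643 CPM in freshly laid embryos. All hypoxia libraries were high, and the freshly laid ones lay just under the normoxia ones. HMOX1, heme oxygenase 1, had 5.21, 4.14, 6.51, 4.35 and 6.72 CPM in normoxia, 194.00, 99.1, 69.5, 75.2 and 74.6 CPM in hypoxia and 3.33, 3.85, 2.78, 2.86 and 5.51 CPM in freshly laid embryos. It was likewise set apart by hypoxia. The 2 genes lower than both were ATF5 and CHAC1. ATF5, a relative of ATF4, averaged 58.3 ± 13.4 CPM in normoxia, 1221 ± 381 in hypoxia and 146 ± 70.9 in freshly laid embryos (adjusted p = 0.00574). CHAC1, which degrades glutathione, averaged 2.42 ± 0.487 CPM in normoxia, 77.1 ± 8.94 in hypoxia and 4.07 ± 1.32 in freshly laid embryos. Its call (adjusted p = 0.0307) was lost in 6 of 15 fits, up to 0.0815, and by limma-voom (0.149). DDIT3 (CHOP), of the same response, averaged 26.6 ± 19.5 CPM in normoxia, 401 ± 154 in hypoxia and 17.7 ± 19.2 in freshly laid embryos. The immediate early gene JUNB averaged 9.598 ± 1.89 CPM in normoxia, 74.5 ± 11.7 in hypoxia and 11.9 ± 2.90 in freshly laid embryos. Both were lower than the mean (adjusted p = 0.0121 and 2.23e-06), with only hypoxia far off.

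Of the genes called against the mean with normoxia between the other groups, the widest apart included TAT, tyrosine aminotransferase, which averaged 9.71 ± 4.93 CPM in normoxia, 94.4 ± 25.4 in hypoxia and 3.12 ± 0.989 in freshly laid embryos. Its call against the mean (log2 -0.82, adjusted p = 0.0267) was lost without normoxia replicate 1 (0.0760), 2 (0.0591) or 4 (0.0776). Total-count scaling (0.0587) and fitting the other groups as 1 (0.0907) ended it as well. SLC34A2, a sodium phosphate transporter, averaged 8.42 ± 3.56 CPM in normoxia, 4.85 ± 1.33 in hypoxia and 55.0 ± 18.5 in freshly laid embryos. Freshly laid embryos stood apart from both 36 h groups in that gene. Cytosolic ribosomal protein genes lay between the other groups for 51 of 54 tested members, beside 30.0% of all tested genes. Beside 22.5% of all tested genes, 4 of the 54 were lower than the mean, and 13 with the title blocks as a covariate. Among the 4 were RPL4 (log2 -0.72, adjusted p = 8.96e-04) and RPL3 (log2 -0.60, adjusted p = 0.00172). Neither passed against freshly laid embryos (0.149 and 0.498). In ribosome biogenesis, 15 of 34 tested genes were higher and 7 lower than the mean, beside 21.9% and 22.5% of all tested genes. UTP15, of the early processing complex, averaged 63.2 ± 4.95 CPM in normoxia, 20.9 ± 2.50 in hypoxia and 39.2 ± 5.56 in freshly laid embryos and was higher than both (adjusted p = 0.00227). The nucleolar protein NOLC1 was higher than the mean (adjusted p = 1.38e-06) and did not pass both tests by edgeR (0.0809), and did by DESeq2 (0.0448), by limma-voom (0.0456) and under total-count scaling (0.0429).

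Growth and early response genes were mixed. MYC, the growth-promoting transcription factor, averaged 42.4 ± 5.38 CPM in normoxia, 11.5 ± 3.91 in hypoxia and 22.4 ± 8.10 in freshly laid embryos. It was higher than both groups (adjusted p = 0.0201, lost in 2 of 15 fits, up to 0.0569, and with the title blocks, 0.0603). So was IER5, an immediate early gene (adjusted p = 0.0260, lost in 5, up to 0.0698, and with the title blocks, 0.0823). In the growth arrest list, 7 of 20 tested genes were higher and 4 lower than the mean. The shares of all tested genes were 21.9% and 22.5%. BTG2, an antiproliferative protein that binds the CCR4-NOT deadenylase, averaged 39.3 ± 19.6 CPM in normoxia, 15.5 ± 4.36 in hypoxia and 7.54 ± 1.48 in freshly laid embryos (adjusted p for both = 0.00467). Its relative TOB1 was higher than both (adjusted p = 0.00702), and GADD45A, of the DNA damage response, too (0.0375, lost in 6 of 15 fits, up to 0.0969). KLF10, an early target of TGF-beta, averaged 28.2 ± 8.38 CPM in normoxia, 191 ± 49.5 in hypoxia and 54.6 ± 8.97 in freshly laid embryos and was lower than both (adjusted p = 0.00666).

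Of 16 tested heart and lateral mesoderm genes 6 were higher than the mean (median 0.67), and of 14 blood and endothelium genes 7 (median 1.25). The rest did not pass, and 21.9% of all tested genes were higher. The blood count was 4 without normoxia replicate 3, 4 or 5 or hypoxia replicate 1 or 2, and 1 with neighbouring normoxia libraries summed. By edgeR none of the 16 and 14 passed both tests (3 and 1 at an unadjusted p under 0.05), while limma-voom called 3 and 1 and DESeq2 1 and 0. HAND2, of heart and lateral mesoderm, averaged 7.93 ± 1.77 CPM in normoxia, 2.12 ± 1.79 in hypoxia and 0.709 ± 0.894 in freshly laid embryos (adjusted p = 0.00300, and 0.131 for both differences, 0.0102 by limma-voom). FOXF1, of visceral mesoderm, averaged 5.04 ± 2.04 CPM in normoxia, 0.837 ± 0.788 in hypoxia and 1.35 ± 0.966 in freshly laid embryos (0.00342 and 0.0757, and for both 0.0259 by DESeq2 and 0.0215 by limma-voom). KDR, the VEGF receptor of endothelium, averaged 116 ± 22.9 CPM in normoxia, 24.5 ± 11.9 in hypoxia and 70.5 ± 49.0 in freshly laid embryos. LMO2, of blood and vessel precursors, averaged 37.5 ± 19.01 CPM in normoxia, 17.2 ± 16.5 in hypoxia and 5.29 ± 4.9996 in freshly laid embryos. Their differences from the mean passed (adjusted p = 0.00357 for KDR and 0.0144 for LMO2). LMO2 lost the call with neighbouring normoxia libraries summed (0.0864) and with the other groups fitted as 1 (0.0672). The summed level of the 15 blood and endothelium genes ran 347 to 624 CPM in normoxia, 214 to 485 CPM in hypoxia and 150.7 to 410 CPM in freshly laid embryos, so the groups overlapped.

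Calls among endoderm, leukocyte, germline and cholesterol genes stand beside 21.9% higher and 22.5% lower over all tested genes. Of 13 tested endoderm genes 2 were higher (4 without hypoxia replicate 3) and 3 lower than the mean. FOXA1, a pioneer factor of endoderm, was higher than the mean by 1.90 on the log2 scale (adjusted p for both = 0.0629 by edgeR, 0.0224 by DESeq2 and 0.0430 by limma-voom). PRDM1, a zinc finger repressor, was lower (log2 -0.83; adjusted p for both = 0.714). The summed level of the 13 leukocyte markers ran over 16.5 to 52.5 CPM in normoxia, 20.8 to 113 in hypoxia and 20.9 to 40.1 in freshly laid embryos, and its part in the results was not tested. Of the 11 tested ones 2 were higher and 1 lower, with a median of -0.67 on the log2 scale, beside -0.02 over all tested genes. Normoxia had the lowest mean for 6 of the 11 and the highest for 4, beside 36.4% and 33.7% of all tested genes. The 2 higher ones follow. IKZF1, of lymphocytes, averaged 7.22 ± 2.73 CPM in normoxia, 2.16 ± 1.09 in hypoxia and 2.22 ± 0.717 in freshly laid embryos and passed both tests (adjusted p = 0.0107, and 0.0812 with neighbouring libraries summed). SPI1, of myeloid cells, lost its call against the mean (adjusted p = 0.0227) without normoxia replicate 5 (0.131). That call was also lost by limma-voom (0.107), with neighbouring libraries summed (0.121), and with title blocks (0.296) or the index block (0.0549) as a covariate. Fitting hypoxia and freshly laid embryos as 1 group ended it too (0.0503). The 12 oocyte and germline genes summed to 83.7 to 180.3 CPM in normoxia, 76.7 to 126 in hypoxia and 85.1 to 141 in freshly laid embryos, with MOS at 0 in normoxia and hypoxia and BMP15 at 0 in normoxia. Of the 8 tested ones 1 was higher and 2 lower. DND1, an RNA-binding protein of germ cells, averaged 84.1 ± 30.0 CPM in normoxia, 15.4 ± 5.997 in hypoxia and 12.6 ± 11.01 in freshly laid embryos (adjusted p for both = 0.00524). ZAR1, an oocyte protein, averaged 0.2995 ± 0.140 CPM in normoxia, 13.3 ± 6.03 in hypoxia and 0.555 ± 0.250 in freshly laid embryos. Hypoxia stood apart, and the call did not extend to both groups (adjusted p = 0.261). Of 19 cholesterol synthesis genes, 1 was higher (MVK, log2 0.81) and 2 lower (SREBF2 among them, log2 -0.74). The lower count was 6 without freshly laid replicate 1 or hypoxia replicate 1, 4 without freshly laid replicate 2 and 1 without normoxia replicate 1.

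**Figure D5:**
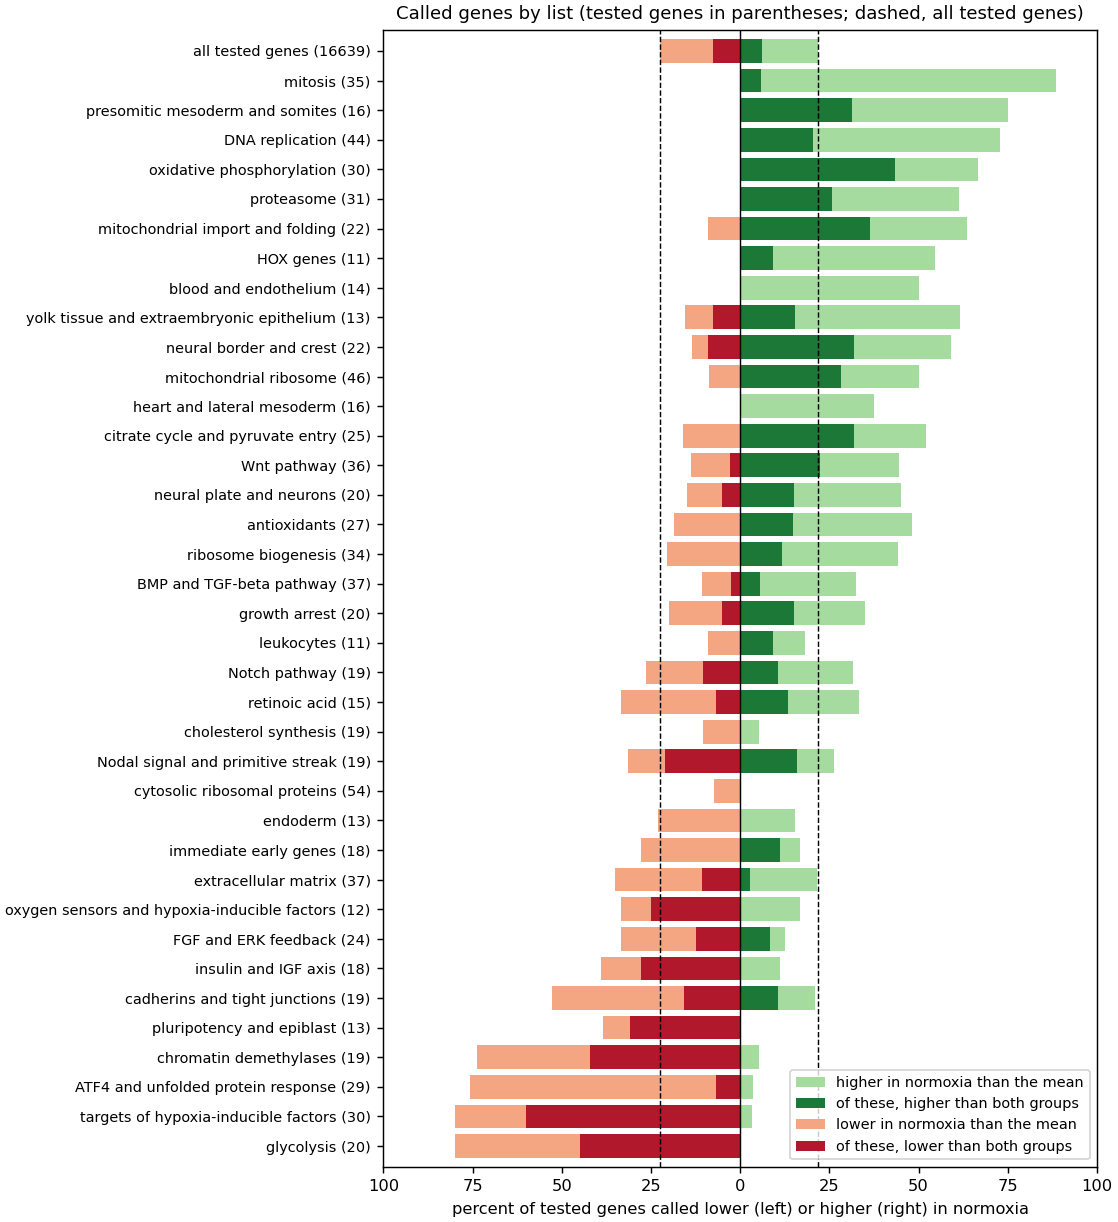
For each gene list with at least 10 tested members, the percent of members called higher (right, green) and lower (left, red) in normoxia than the mean of hypoxia and freshly laid embryos, with the share beyond both groups in the dark shade. Dashed lines mark the 21.9% higher and 22.5% lower over all tested genes; mitosis (31 of 35), the somite list (12 of 16) and replication (32 of 44) reach furthest to the right, and HIF targets (24 of 30) and glycolysis (16 of 20) furthest to the left.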

How the data were processed

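RNA from frozen whole embryos was sequenced. The table holds raw, unnormalised counts as deposited. STAR, featureCounts and limma are named in the submitters' processing notes. Per the file headers, counting was by featureCounts 1.6.2, with strand set to 2 and reads under mapping quality 10 dropped. Of 18 count columns, the 3 without a listed sample were left unused. An entry with no gene name (0.0553% to 0.334% of counts) was left out.

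In R 4.3.3, edgeR 4.0.16 (filterByExpr, TMM, quasi-likelihood F test) fitted 1 mean per group to 15 libraries, with 12 residual degrees of freedom. Normoxia was compared with the mean of the other 2 group means, and with each. For "both", the larger p was used. P-values were adjusted over all genes by Benjamini and Hochberg, with a threshold of 0.05. Fold values are fitted; ± is the SD over 5 libraries. Lists were described, not tested. In any list, a member high in normoxia alone can pass the filter on low counts. The edgeR steps were run on simulated data in which only normoxia was changed. Hypoxia and freshly laid embryos did not differ there, so that run cannot speak for genes where they do. Alternatives used DESeq2 1.42.0 and limma 3.58.1.

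Named genes included the 10 largest rises and 10 largest falls beyond both. Rises needed a mean of at least 20 counts in normoxia alone, and falls in each of the other 2 groups. A rise could thus be named with few or no counts outside normoxia. Rises and falls were taken only from genes whose normoxia libraries did not overlap the others in CPM. Their lack of overlap was thus set by the choice. The rest were the 2 members per list with the smallest p against the mean, 6 fixed genes and 4 genes between the groups. A further 65, and list members named with means alone, were chosen after their values were seen. Some of these genes are not reported here. The members and lists were chosen with earlier results of these data known. The 39 lists hold 1030 genes, 864 tested, and some genes stand in several.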

Additional observations from a re-analysis of the deposited data

Results flagged for a closer look

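Within each group of 5, a library was singled out where its gap to the nearest other library exceeded Dixon's 95% limit for the range. For normally distributed values chance gives about 1 in 20 groups, and 47 of 507 (9.27%) were singled out here. CPM of genes with few counts is not distributed that way. Where only a single library of a group held any count, it was always singled out, as for MSGN1 in hypoxia. The share of 9.27% beside 1 in 20 is therefore not a result. Of the 47 singled out, 10 were in freshly laid replicate 3, 7 in hypoxia replicate 3 and 6 in freshly laid replicate 5. Each value below is CPM in the named library, with the nearest other library of its group after it.

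High in normoxia replicate 1 was TXNRD3 at 213 (159.3). High in normoxia replicate 2 were FGA at 185 (58.0) and TET1 at 23.5 (15.2). High in normoxia replicate 3 were SERTM1 at 1.77 (1.33) and CA9 at 1.94 (1.14). High in normoxia replicate 4 were KRT8 at 319.6 (231) and COL1A1 at 2.62 (1.62). High in normoxia replicate 5 were SUCLG1 at 193 (138), PSMA6 at 279 (220.1) and NODAL at 0.238 (0.0887).

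High in hypoxia replicate 1 were SH2D1A at 16.04 (4.16), HMOX1 at 194.00 (99.1) and TP63 at 8.92 (2.46). High in hypoxia replicate 3 were MSGN1 at 0.0631 (0), ZNF750 at 0.0631 (0), SPP2 at 0.631 (0.109), KCNJ16 at 4.04 (0.496), CLDN2 at 0.0631 (0), SPI1 at 6.63 (2.13) and SPTLC3 at 6.56 (2.49). High in hypoxia replicate 4 were KRT23 at 0.124 (0) and JAG2 at 76.5 (46.8). High in hypoxia replicate 5 were PSMA6 at 102 (84.4) and AHNAK at 552 (429.8). Low in hypoxia replicate 1 was SLC2A1 at 267 (503).

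High in freshly laid replicate 1 was KCNJ16 at 3.20 (0.543). High in freshly laid replicate 2 were RDH10 at 33.4 (23.7) and DDIT3 at 51.5 (14.9). High in freshly laid replicate 3 were GCM1 at 0.0603 (0), SERTM1 at 76.2 (21.4), ID2 at 10.4 (2.66), IGFBP3 at 15.7 (8.61), STC1 at 42.5 (16.7), NFE2L2 at 12.6 (8.35), SLC9A3 at 2.29 (0.409) and DEGS1 at 67.5 (23.1). High in freshly laid replicate 5 were CLDN2 at 0.0918 (0), ATP12A at 0.413 (0.0511), KCNG4 at 0.230 (0.0511), TWIST1 at 0.184 (0.0511) and TP63 at 1.74 (0.613). Low in freshly laid replicate 1 was TAT at 1.38 (3.32). Low in freshly laid replicate 2 was IKZF1 at 0.978 (2.26). Low in freshly laid replicate 3 was IGF2BP1 at 384 (489). Low in freshly laid replicate 4 was ATF3 at 0.204 (0.628). Low in freshly laid replicate 5 was BTG2 at 5.004 (7.65). The share of counts without a gene name was also high in freshly laid replicate 3, at 0.249% (0.101%). Where leaving such a library out changes a called gene's difference by over 1.5 times, the value without it stands beside that gene.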

How the results depend on the processing

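Counts of genes against the mean, beyond both, and for hypoxia minus freshly laid held within 1.5 times of 7381, 2291 and 6701 under most alternatives. Total counts gave 7515, 2177 and 7347, median-ratio scaling 7380, 2284 and 6691, no filter 7522, 2095 and 6665, DESeq2 7901, 2921 and 7291, and limma-voom 7692, 2487 and 6544. Fitting hypoxia and freshly laid embryos as 1 group of 10 gave 5307 against the mean. Summing normoxia libraries with neighbouring title numbers gave 5161, 1112 and 6333, and title numbers in blocks as a covariate 6473, 1751 and 6946. With the summed libraries, the 1112 genes beyond both fell outside 1.5 times of 2291. Fewer normoxia libraries entered that fit.

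Leaving out 1 library gave 6272 (without normoxia replicate 3) to 7597 (hypoxia replicate 3) against the mean, 1663 (normoxia replicate 5) to 2411 (hypoxia replicate 3) beyond both, and 5840 to 6688 for hypoxia minus freshly laid. The filter on low counts was applied anew to the libraries of each fit, so the genes tested can differ from the main fit.

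The header names carry index numbers, in a block under 12 (10 libraries) and a block of 12 or over (5 libraries, with 3 normoxia, 1 hypoxia and 1 freshly laid); these alternatives were chosen after seeing the data. The block as a covariate gave 6578, 1917 and 6670. The 10 libraries alone gave 3268 against the mean and 342 beyond both, and the 5 alone 4410, 66 and 3455 with 2 residual degrees of freedom. Fewer libraries enter these fits. FGF8 turned to 0.34 in the 5 (adjusted p = 0.752), and the cause was not tested. Over the 165 named genes and 26 settings, 4238 of 4290 differences from the mean kept their direction and call, 51 lost the call and 1 reversed. Many of these genes were chosen by this contrast or after their values were seen, so the choice itself favours kept calls. Of the 133 named genes called beyond both, DESeq2 ended the call of 0 (and added 5 of the 32 not called), limma-voom of 5 (added 7), total counts of 7 (added 3), no filter of 1, the index block of 15, the title blocks of 17 and summed libraries of 28. Leaving out 1 library ended 3 (hypoxia replicate 4 or 5) to 15 (normoxia replicate 3) of these calls, the 10 libraries alone 80 and the 5 alone 113. Beside those given with the genes, the title blocks ended CHAC1 (0.105), MAML1 (0.0727), KIF23 (0.0615), GADD45A (0.127), LEF1 (0.117) and FABP2 (0.0724). The calls that summed libraries ended included FGF8 (0.0887), LRP6 (0.0787), PRDM14 (0.0667), EOMES (0.121) and NODAL (0.106). Those that the index block ended included FGF8 (0.0655), EOMES (0.105) and NODAL (0.136). Not every call lost in these 2 settings is given with its gene.

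No paired analysis was possible because replicate numbers here follow the order of the samples and the labels tie no library to a female, clutch or day; the title and index blocks above are ranges of numbers entered as a covariate, and pair no libraries. Depth limits the genes near 0 in 1 or both other groups (MSGN1, ZNF750, KRT23, GCM1, CLDN2, ATP12A), where a single library's few counts set the fold.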

Other observations

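Beside the listed genes, several transporter genes were higher in normoxia than in both other groups; the genes in these 2 paragraphs were chosen after their values were seen. SGK1, a kinase that raises sodium uptake in epithelia, had 107, 105, 161, 132 and 146 CPM in normoxia, 1.56, 2.19, 3.98, 3.10 and 0.994 CPM in hypoxia and 5.21, 12.9, 7.18, 9.05 and 6.79 CPM in freshly laid embryos. It was 15.8-fold above the nearer group (edgeR adjusted p for both = 9.70e-07). SLC5A1, the sodium glucose transporter SGLT1, averaged 340.0 ± 73.4 CPM in normoxia, 65.9 ± 40.4 in hypoxia and 33.4 ± 20.2 in freshly laid embryos (adjusted p = 0.00147). SLC9A3, the sodium proton exchanger NHE3, averaged 7.22 ± 4.39 CPM in normoxia, 0.335 ± 0.477 in hypoxia and 0.635 ± 0.942 in freshly laid embryos. Its call (adjusted p = 0.0258) was lost in 5 of 15 fits leaving out 1 library, up to 0.0673 (smaller log2 difference 3.51, and 4.42 without freshly laid replicate 3). TP63, the p53 relative of stratified epithelium, averaged 20.95 ± 5.61 CPM in normoxia, 3.41 ± 3.10 in hypoxia and 0.795 ± 0.535 in freshly laid embryos (smaller log2 difference 2.61, and 3.36 without hypoxia replicate 1). UPK1B, a uroplakin, averaged 56.4 ± 15.9 CPM in normoxia, 13.04 ± 8.85 in hypoxia and 8.87 ± 5.07 in freshly laid embryos. SPTLC3, CERS3 and DEGS1 each encode an enzyme of ceramide synthesis. SPTLC3 averaged 25.03 ± 11.9 CPM in normoxia, 2.67 ± 2.26 in hypoxia and 2.13 ± 0.994 in freshly laid embryos. CERS3 averaged 16.3 ± 8.54 CPM in normoxia, 2.52 ± 1.02 in hypoxia and 0.219 ± 0.112 in freshly laid embryos. DEGS1 averaged 189.7 ± 80.1 CPM in normoxia, 41.7 ± 8.10 in hypoxia and 24.2 ± 24.9 in freshly laid embryos. Each of the 3 passed both tests; how other genes of that pathway moved was not tallied. CPT1A, which admits long-chain fatty acids to the mitochondrion, averaged 91.4 ± 40.1 CPM in normoxia, 7.02 ± 4.69 in hypoxia and 13.9 ± 5.14 in freshly laid embryos (adjusted p = 3.51e-04).

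Among genes lower than both, SDC1, a heparan sulfate proteoglycan of epithelia, averaged 148 ± 25.6 CPM in normoxia, 652 ± 275 in hypoxia and 759.9 ± 169 in freshly laid embryos. SKI, a repressor of SMAD signalling, averaged 19.4 ± 1.04 CPM in normoxia, 76.1 ± 27.5 in hypoxia and 153 ± 43.0 in freshly laid embryos. JARID2, a partner of Polycomb complex 2, averaged 45.9 ± 4.40 CPM in normoxia, 160.2 ± 34.2 in hypoxia and 193.7 ± 39.9 in freshly laid embryos. AHNAK, a very large scaffold protein, averaged 116 ± 20.7 CPM in normoxia, 440.5 ± 64.7 in hypoxia and 436 ± 141 in freshly laid embryos. All 5 normoxia libraries lay below the 10 others for each of these 4 genes (adjusted p for both = 5.16e-05 for SDC1, 6.97e-05 for SKI, 6.71e-06 for JARID2 and 1.28e-05 for AHNAK).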
